A study of Medicago truncatula with 21 samples.

Results

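Mature seeds of the abi4-2 line were compared with mature seeds of the wild-type line R108 in the legume Medicago truncatula, with 3 RNA sequencing libraries for each genotype. A transcript identifier entered the comparison when its deposited value was at least 10 normalized counts in at least 3 of these 6 libraries, which 18780 of the 44473 identifiers did. They comprised 18660 of 44316 nuclear identifiers, 78 of 85 identifiers of the plastid genome and 42 of 72 of the mitochondrial genome. The whole series holds 21 libraries in 7 groups, which also cover the abi4-1 line and seeds at 13 and 24 days after pollination (DAP). Per the labels, abi4-2 is the Tnt1 insertion line NF2525, abi4-1 is NF19813, and both are in the R108 background that the controls carry without the insertion. Whole seeds were taken from the pods, and the design text of the series describes replicates as batches of seeds from different plants. The mutants in that text are lines of a different gene, hsfa9, and the sample labels were followed here, so a p-value may cover technical spread alone if the text does not apply to these libraries.

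ABI4 belongs to the AP2/ERF transcription factors and is best known from Arabidopsis for its part in abscisic acid and sugar signalling in seeds and seedlings, where it was also studied in signalling from plastids to the nucleus. Tnt1 is a retrotransposon that is used in Medicago to disrupt genes by insertion. During late maturation a legume seed stops filling, dries, and in many species loses its chlorophyll, and the stored messenger RNA of the dry seed reflects that program. Plastids and mitochondria have small genomes of their own, which encode parts of the photosynthetic and respiratory complexes and of the organelles' ribosomes. The deposited file does not pair identifiers with gene names, and 0 identifiers matched the reference gene table, so the ABI4 transcript was not examined against the labels, marker genes of seed tissues were not examined, and no function is given to any identifier here. Identifiers are described by genome, chromosome, level and neighbourhood, and no more than a pair in each direction is named.

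The 6 libraries held similar amounts of data, with totals between 19293000 and 20345800 normalized counts. The value of 1 read was close to 1 in each of them, which puts the depth at 19619700 to 19780800 reads. At least 10 normalized counts were reached by 18548 to 18810 identifiers in the abi4-2 libraries and by 18147 to 18211 in the R108 libraries. Over the identifiers compared, log2 values of libraries of the same genotype correlated at 0.986 to 0.990 and those of different genotypes at 0.944 to 0.951. The median standard deviation (SD) between replicates was 0.130 on the log2 scale in abi4-2 and 0.107 in R108. The 10 most abundant transcripts of a library took a smaller share of it in abi4-2 (6.61 ± 0.184%) than in R108 (7.47 ± 0.0760%; SD, n = 3 each), with no overlap between the genotypes (exact two-sided permutation, p = 0.1, the smallest that 3 against 3 allows).

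Much of the mature seed transcriptome differed between the genotypes. Of all identifiers tested, 43.4% were called, that is, had a Benjamini-Hochberg adjusted p under 0.05 in limma, with 21.9% higher and 21.5% lower in abi4-2. Among nuclear identifiers 4066 rose and 3969 fell in abi4-2, and 10625 were not called. Most of these changes were small, and the falls were smaller than the rises. Of the nuclear falls, 71.7% were below 1.5-fold, against 44.7% of the rises, and the median size of a called change was 0.40 on the log2 scale for falls and 0.66 for rises. At the other end, 138 nuclear rises and 10 nuclear falls were 16-fold or more. Over all nuclear identifiers the median log2 change was -0.0061, with the middle 50 percentiles between -0.24 and 0.29. The near balance of 4066 rises and 3969 falls depended on how libraries were scaled. Scaling to the upper quartile of the values above 0 in each library moved the median of all identifiers from -0.0070 to 0.13 and gave 6066 rises and 2199 falls, so that 73.4% of the nuclear calls were rises in place of 50.6%.

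The direction of change followed the level of the transcript. Among nuclear identifiers with a mean below 30 normalized counts over the 6 libraries, 21.0% were higher and 7.81% lower in abi4-2, with a median log2 change of 0.16. Among those with a mean of 3000 or more, 15.9% rose and 38.7% fell, at a median of -0.092. Between these ends the share of falls climbed with each of the 6 level classes, through 13.2, 20.2, 26.7 and 33.4%. On the upper-quartile scale of values above 0 every class median was positive, from 0.30 in the lowest class to 0.041 in the highest, so the sign of the change in abundant transcripts depends on the scaling. On that scale 25.8% rose and 5.90% fell in the lowest class, and 30.7% rose and 14.4% fell in the highest, so both shares were larger there. The values are not divided by transcript length, so a class groups transcripts by reads and not by molecules. The transcript with the highest mean over the 6 libraries held 439368, 399841 and 411012 normalized counts in the R108 libraries and 368540, 329573 and 381056 in the abi4-2 libraries. Each abi4-2 library lay below each R108 library, by a log2 change of -0.21 ± 0.076 (SE; adjusted p in limma = 0.0382).

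**Figure D1:**
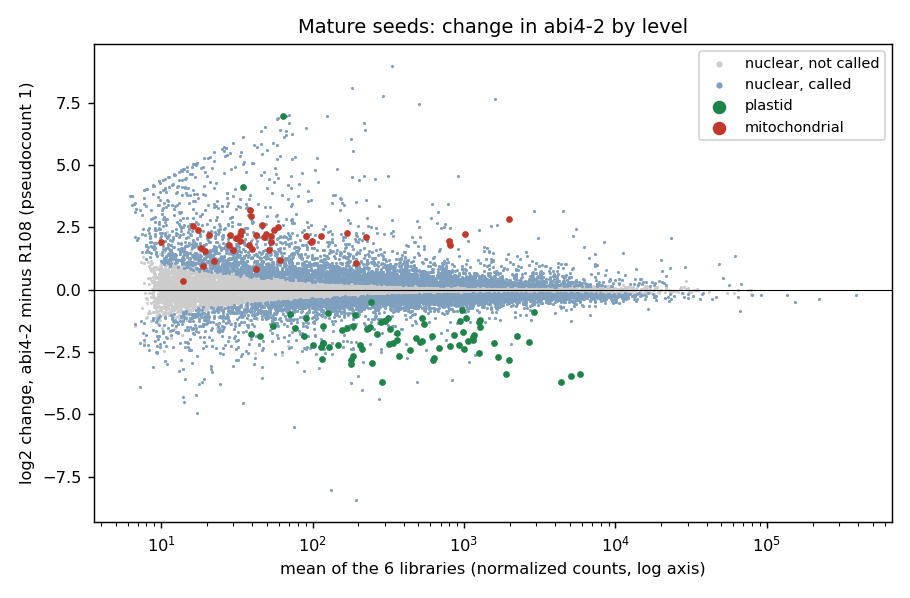
Each point is 1 of the 18780 identifiers, with the mean of the 6 mature libraries on a log axis (normalized counts) and the log2 change of abi4-2 minus R108 on the vertical axis. Grey and blue points are nuclear identifiers that were not called and called, green points are plastid and red points mitochondrial identifiers. Plastid points lie almost all below 0, at a median of -1.92, and mitochondrial points above 0, at a median of 2.09.

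**Figure D2:**
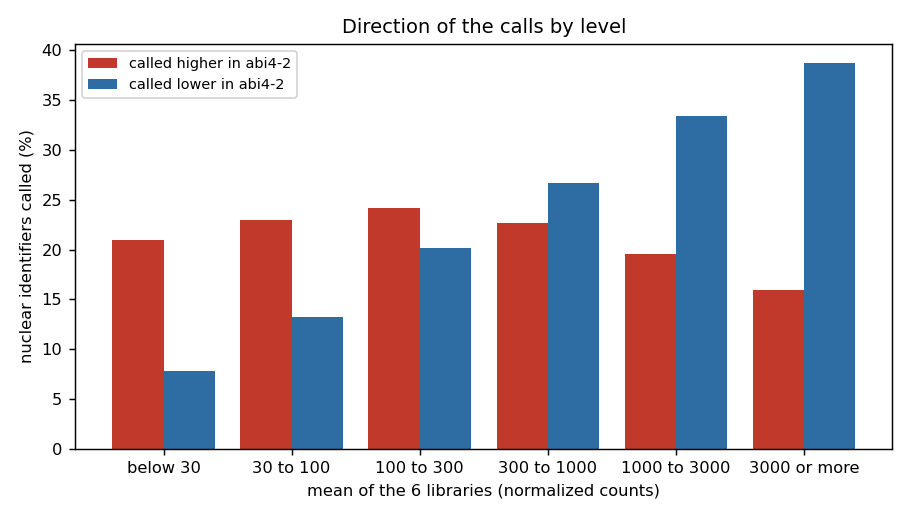
Bars give the percentage of nuclear identifiers called higher (red) or lower (blue) in abi4-2, in 6 classes of the mean over the 6 libraries. The share of falls climbs from 7.81% in the lowest class to 38.7% in the highest.

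Large changes were mostly rises. At least 4-fold higher in abi4-2 were 482 nuclear identifiers, and 128 were at least 4-fold lower; over all identifiers tested these rules called 2.69% and 0.884%. Because the filter needs only 3 libraries, an identifier can enter through 1 genotype alone, and such an identifier had to differ: 423 nuclear identifiers passed with no R108 library at 10 and 137 with no abi4-2 library at 10, while 16547 reached 10 in all 6. The rises of at least 4-fold sat at low levels, with a median of 47.9 normalized counts in abi4-2 and 4.05 in R108, and 50 of them were listed at 0 in each R108 library. The corresponding falls had a median of 10.5 in abi4-2 and 57.0 in R108, and 4 of them were listed at 0 in each abi4-2 library.

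The named rises were transcripts near absent from R108 mature seeds. MtrunA17_Chr1g0202241, on chromosome 1, stood at 677, 917 and 418 normalized counts in the abi4-2 libraries, and in R108 its values were 0, 0 and 1.01. It was between 0.92 and 1.98 in R108 at 13 DAP and between 1.20 and 14.4 at 24 DAP, on separately scaled values, so none of the 9 R108 libraries of the series approached the abi4-2 level. MtrunA17_Chr6g0463521, on chromosome 6, stood at 399, 444 and 242 in abi4-2 and at 0, 0 and 1.07 in R108. It was listed at 0 in each R108 library at 13 DAP and at 0.84 to 5.29 at 24 DAP. For both identifiers the third abi4-2 library was the lowest and the second the highest. Both were picked for a large rise with high values in each abi4-2 library, so the separation of the genotypes is part of the choice. No p-value against R108 is given for the named rises and falls, because each passed the filter through 1 genotype alone and was picked for the size of its change.

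The named falls were both listed at 0 in every abi4-2 library. MtrunA17_Chr4g0016361, on chromosome 4, stood at 173, 557 and 434 normalized counts in R108, and it was also listed at 0 in each mature abi4-1 library. MtrunA17_Chr4g0016261, on the same chromosome, stood at 223, 343 and 226 in R108. In R108 it was already present at 13 DAP, at 55.1 to 121, whereas MtrunA17_Chr4g0016361 was listed at 0 in some of the libraries at 13 and at 24 DAP and reached 58.9 in another. An exact 0 in a file of this kind can be a failed estimate, and no fold change is given for either. Both lie in the chromosome 4 run described further on. The largest fall outside that run, among identifiers with at least 100 in each R108 library and a value above 0 in abi4-2, went from 465, 574 and 535 in R108 to 26.7, 25.4 and 20.9 in abi4-2, a log2 change of -4.38 ± 0.14 (SE; adjusted p in limma = 8.6e-10). It was at 223 to 279 in R108 at 13 DAP and at 151 to 186 at 24 DAP. This transcript too was picked for the size of its change, so its p-value is not independent of that choice.

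Which transcripts are named depends on a choice that was settled after its outcome was seen. Named transcripts had to be called with each library left out in turn. When the filter of 10 in at least 3 libraries was applied again to the 5 libraries left, a transcript present in 1 genotype alone was no longer tested, and the rule picked 4 other transcripts, with 0 in common. Their rises went from 22.0, 9.90 and 12.5 normalized counts in R108 to 2996, 4524 and 2053 in abi4-2 (log2 change 7.66 ± 0.28, SE), and from 11.2, 1.00 and 5.03 to 194, 233 and 196 (5.30 ± 0.48). Each is the largest rise of a run of neighbours described further on, the first on chromosome 4 and the second on chromosome 2. Their falls were the fall outside the run just given and one inside it, from 160, 110 and 152 in R108 to 0, 0 and 28.8 in abi4-2. Counts of large changes depended on the same choice. With the filter applied again, 175 to 214 nuclear rises of at least 4-fold were left without an abi4-2 library in place of 482, and 75 to 79 falls without an R108 library in place of 128.

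**Figure D3:**
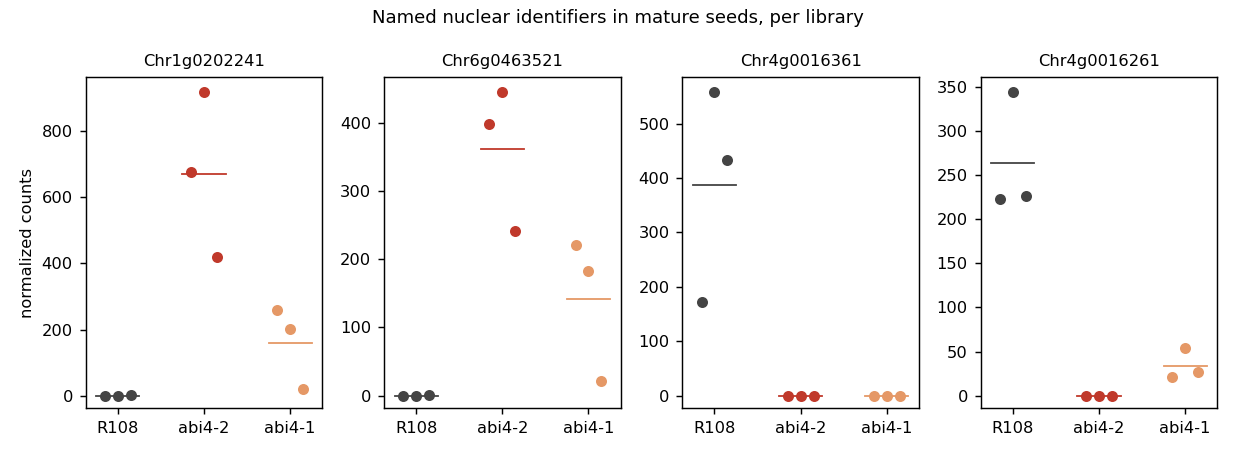
Points are single mature libraries and short lines are group means, in normalized counts on linear axes, for the 4 named nuclear identifiers in R108, abi4-2 and abi4-1. The panels on the left show transcripts at 1.07 or less in R108 and at 242 or more in abi4-2, and those on the right show transcripts at 173 or more in R108 and listed at 0 in abi4-2.

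Switch-like differences ran mainly towards presence in abi4-2. Of the nuclear identifiers, 125 stayed below 3 normalized counts throughout R108 and reached 10 or more throughout abi4-2, and 10 showed the reverse, where these rules held for 0.671% and 0.0532% of all identifiers tested. The 125 had a median of 28.3 in abi4-2, and their means ran from 11.5 to 671. Their summed level was 6244, 7750 and 4509 normalized counts in the abi4-2 libraries and 48.2, 54.2 and 54.5 in the R108 libraries. Within abi4-2 the third library was the lowest of the 3 for 81 of the 125, and the second was the highest for 78. In the other allele the sums were 4495, 5863 and 2364, and 54 of the 125 reached 10 in each abi4-1 library. The third abi4-1 library was the lowest, with a median of 9.18 over the 125, against 20.0 and 23.4 in the others. In R108 seeds at 13 or 24 DAP, 59 of the 125 had a mean of at least 10, on separately scaled values, and 66 did not at either stage. The 10 identifiers of the reverse kind summed to 533, 1083 and 845 in R108 and to 8.93, 8.80 and 10.9 in abi4-2. Both sets were defined by these same R108 and abi4-2 values, so the separation of their sums follows from the rules. Without the third abi4-2 library 188 identifiers met the rule for presence in abi4-2, and 20 met the reverse. Each rule must hold in every library, so by construction leaving a library out cannot lower either count.

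Strong rises were scarce among abundant transcripts. Of the 1492 nuclear identifiers with a mean of 3000 or more, 5 were at least 4-fold higher in abi4-2 and 0 were at least 4-fold lower. Over all identifiers tested these rules called 2.69% and 0.884%. The most abundant of the 5 stood at 9003, 9027 and 8797 normalized counts in R108 and at 39998, 38357 and 34684 in abi4-2, a log2 change of 2.07 ± 0.057 (SE; adjusted p in limma = 2.3e-10). In R108 at 24 DAP this transcript had a mean of 1258850, on a separate scale. The one with the largest change stood at 810, 913 and 870 in R108 and at 9766, 10218 and 4544 in abi4-2, a log2 change of 3.15 ± 0.22 (SE; adjusted p in limma = 4.2e-07). In abi4-2 the third library was lower than the others but still above each R108 library. The log2 changes of the other 3 were 2.42, 2.18 and 2.08. At 24 DAP in R108 the means of these 5 ran from 374 to 1258850, and for 4 of the 5 they were above the mature R108 mean.

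Rises and falls were spread over all 8 chromosomes. The share of tested identifiers called higher ran from 20.4% on chromosome 6 to 22.9% on chromosome 3, and the share called lower from 18.6% on chromosome 5 to 23.1% on chromosome 3, close to the 21.9% and 21.5% of all identifiers. Falls of at least 4-fold were less even. Chromosome 4 held 39 of the 128, or 1.25% of its 3121 tested identifiers, and 18 of these 39 lay in a single run of neighbours described further on. Chromosome 1 held 8, or 0.284% of 2813. Of all identifiers tested, 0.884% fell at least 4-fold, a share that includes 38 plastid identifiers, whereas the chromosome shares are nuclear only. Among nuclear identifiers alone the count was 128 of 18660. Another 47 tested identifiers lie on unplaced scaffolds, with 10 higher and 11 lower.

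Some of the large changes came in runs of neighbours. A run was taken as at least 4 tested nuclear identifiers, consecutive in number on a chromosome, that were each called in the same direction by at least 2-fold, with runs separated by 5 or fewer tested identifiers joined. This definition was chosen after the values were seen, and the runs are descriptions without a test. There were 9 runs with 73 identifiers, 5 of rises and 4 of falls, and they held 28 of the 128 falls and 16 of the 482 rises of at least 4-fold. Reads that match near-identical copies can be divided between identifiers in ways that the file does not show, and no sequence was used here to look for such copies.

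The longest run was one of falls on chromosome 4. Among its 32 identifiers 29 were lower, 18 of them by at least 4-fold, 1 was higher and 2 were not called. Their summed level was 11803, 15059 and 12914 normalized counts in the R108 libraries and 2816, 2821 and 2987 in the abi4-2 libraries, 4.61-fold less on the group means. The plastid identifiers, summed the same way, were 4.48-fold less. Whether identifiers of this run, both named falls among them, hold sequence shared with the plastid genome was not tested, so their being nuclear rests on the identifier alone. The 3 falls of at least 4-fold with a mean of 1000 or more over the 6 libraries all lay in this run, and the most abundant of them went from 3178, 3675 and 3276 in R108 to 806, 733 and 676 in abi4-2, a log2 change of -2.19 ± 0.074 (SE; adjusted p in limma = 1.3e-09). The single rise within the run was listed at 0 in each R108 library and stood at 29.7, 156 and 231 in abi4-2. In abi4-1 the run summed to 2821, 2749 and 2672, beside plastid sums of 22068, 22557 and 20018.

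Other runs were shorter. On chromosome 2, 10 neighbours rose together, 8 of them by at least 4-fold, with log2 changes from 1.51 to 5.30. Their sum was 1077, 997 and 1042 normalized counts in R108 and 5294, 5615 and 4204 in abi4-2, 4.85-fold more on the group means. The mitochondrial sum was 4.68-fold more. Over the 3 abi4-2 libraries the run was lowest in the third library, and the mitochondrial sum was highest there. Any link between the run and the mitochondrial transcripts was not tested. A run of 4 on chromosome 4 had the largest joint rise, from sums of 158, 145 and 132 in R108 to 4868, 7145 and 3321 in abi4-2, 35.3-fold on the group means. A run of 7 on chromosome 6 fell 4.52-fold, from 752, 490 and 618 to 142, 165 and 105. That ratio is also near the 4.48-fold of the plastid sum, so a ratio of this size is not particular to the longest run. On chromosome 7, 4 neighbours fell 10.9-fold together, from 1405, 2036 and 1968 to 175, 174 and 146. The runs were defined by these same changes, so the separation of their sums is part of the definition.

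**Figure D4:**
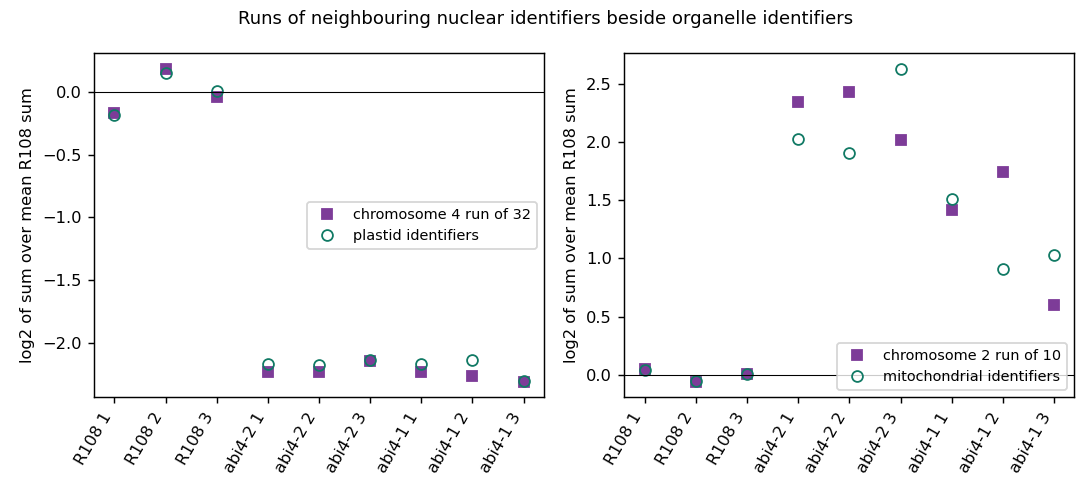
The vertical axes give the log2 ratio of a library's summed normalized counts to the mean R108 sum, for the 9 mature libraries. On the left, squares are the run of 32 identifiers on chromosome 4 and circles the plastid identifiers, which lie close to each other in every library. On the right, squares are the run of 10 identifiers on chromosome 2 and circles the mitochondrial identifiers, both above 0 in all abi4 libraries and apart from each other in several of them, most of all in the second abi4-1 library.

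Plastid transcripts were lower in abi4-2 mature seeds almost without exception. Of 78 tested, 76 were lower and 2 higher, where 21.5% and 21.9% of all identifiers were, and their median log2 change was -1.92 against -0.0070 over all identifiers. Falls ran from 0.51 to 3.71 on the log2 scale, 71 of the 76 were at least 2-fold and 38 at least 4-fold, and in all 76 each abi4-2 library lay below each R108 library, as it did for 27.1% of all identifiers tested and 98.1% of all those called lower. Together the plastid identifiers made up 0.430, 0.557 and 0.501% of the R108 libraries and 0.113, 0.114 and 0.116% of the abi4-2 libraries. The groups did not overlap (exact two-sided permutation, p = 0.1, the lowest attainable), and the abi4-2 libraries were far closer to each other than the R108 libraries were. In whole seeds, fewer plastids or cells of a type and less RNA in each cannot be told apart. The libraries were made from enriched mRNA, and whether organelle transcripts were captured equally in both genotypes was not tested.

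The falls were not of equal size among plastid transcripts. The most abundant one stood at 10352, 11207 and 10378 normalized counts in R108 and at 1050, 1078 and 948 in abi4-2, a log2 change of -3.38 ± 0.059 (SE; adjusted p in limma = 6.4e-12). The largest fall went from 7686, 8728 and 8056 to 685, 644 and 540, a log2 change of -3.71 ± 0.081 (adjusted p = 4.5e-11). That transcript was at most 2.84 in the 12 libraries at 13 and 24 DAP, on separate scales, and was listed at 0 in 7 of them, where a 0 can be a failed estimate. The smallest fall went from 289, 269 and 290 to 145, 238 and 227, a log2 change of -0.51 ± 0.16 (adjusted p = 0.0192), and the other abi4-2 libraries, at 238 and 227, came near the R108 values. The exceptions that rose were at low levels. One was listed at 0 in each R108 library and stood at 102, 111 and 171 in abi4-2, although in R108 at 13 DAP it was at 440 to 616. The other stood at 34.8, 0 and 0 in R108 and at 60.2, 71.8 and 42.8 in abi4-2 (adjusted p = 0.00651), and it lost its call without the intensity trend.

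Mitochondrial transcripts moved the other way. Of 42 tested, 41 were higher and 0 lower, with a median log2 change of 2.09, and 39 of the 41 rose at least 2-fold and 22 at least 4-fold. In 40 of the 41 each abi4-2 library lay above each R108 library, as it did for 26.5% of all identifiers tested and 97.3% of all those called higher. Only 27 of the 42 reached 10 normalized counts in all 6 libraries, and 3 passed the filter through abi4-2 alone. The summed share was 0.0121, 0.0116 and 0.0120% in R108 and 0.0498, 0.0464 and 0.0758% in abi4-2 (exact two-sided permutation, p = 0.1, the lowest attainable). The third abi4-2 library was the highest, and all 3 were well above R108. The most abundant transcript stood at 478, 451 and 449 normalized counts in R108 and at 2815, 2437 and 5240 in abi4-2, a log2 change of 2.84 ± 0.20 (SE; adjusted p in limma = 4.1e-07). It was listed at 0 in all 12 libraries at 13 and 24 DAP, with the same limit. The largest rise among transcripts went from 8.23, 2.97 and 11.5 to 65.4, 64.5 and 80.1, a log2 change of 3.20 ± 0.37 (adjusted p = 2.8e-05). The single identifier that was not called stood at 10.3, 9.91 and 15.6 in R108 and at 20.3, 15.3 and 11.7 in abi4-2, with overlapping groups (adjusted p = 0.410).

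**Figure D5:**
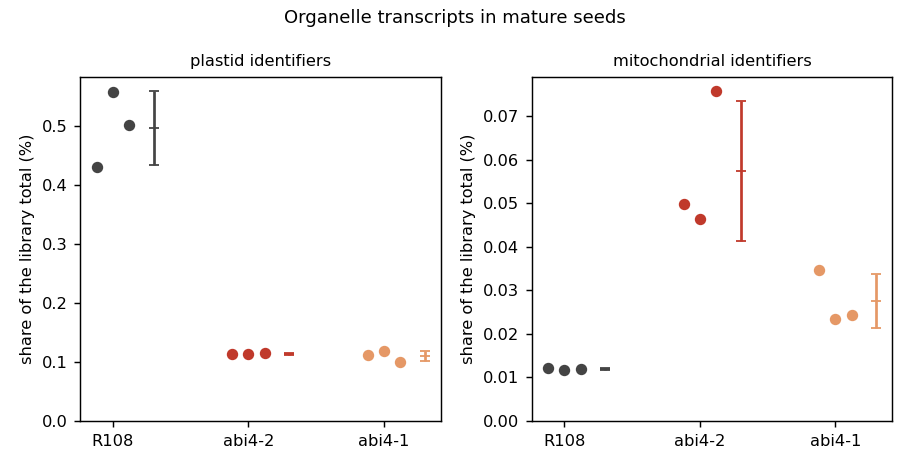
Points are single mature libraries, with the group mean ± SD beside them, and the vertical axes give the percentage of the library total held by plastid (left) and mitochondrial (right) identifiers. R108 lies above both abi4 lines for plastid identifiers, at 0.430 to 0.557% against 0.116% or less in abi4-2, and below them for mitochondrial identifiers, at 0.0121% or less.

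The comparisons of abi4-1 with R108 at 13 and 24 DAP share no library with the mature comparison. At 24 DAP, where 9.64% of all identifiers were higher and 6.40% lower in abi4-1, 296 of the 482 nuclear identifiers that rose at least 4-fold in mature abi4-2 were tested, and 112 of them (37.8%) were higher and 22 (7.43%) lower. These 112 are 5.96% of the 1879 nuclear identifiers higher at 24 DAP. Of all nuclear identifiers tested in both comparisons, 7.84% were higher at 24 DAP. There too an identifier could pass the filter through 1 genotype alone, and such an identifier had to differ. Of the 482, 258 had an R108 mean of at least 10 at 24 DAP, while 296 were tested. The 37.8% may be raised by this, and by how much was not measured. Of the 128 identifiers that fell at least 4-fold, 71 were tested at 24 DAP, and 10 (14.1%) were lower and 9 (12.7%) higher. At 13 DAP, where 2.46% of all identifiers were called, and 1.26% of all identifiers were higher and 1.20% lower, 24 of 315 strong mature rises were higher and 7 lower, and of 72 strong mature falls 0 were higher and 7 lower. Counted over changes of any size, 522 of 3516 mature rises (14.8%) and 173 of 3638 mature falls (4.76%) were higher at 24 DAP, and 192 rises (5.46%) and 381 falls (10.5%) were lower.

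Wild-type levels earlier in development were also recorded for the strongly changed transcripts. In R108 at 13 or 24 DAP, 66.0% of the 482 strong rises and 62.5% of the 128 strong falls had a mean of at least 10, against 90.6% of all nuclear identifiers tested. These stages were scaled separately by the authors, so levels across them are a description. At 13 DAP the median of the strong rises was 32.6 normalized counts, above their mature R108 median of 4.05, and at 24 DAP it was 12.5. For the strong falls the medians were 17.5 and 14.8, under their mature R108 median of 57.0. The strong sets were chosen by their mature R108 and abi4-2 values, so their mature levels are not independent of the choice.

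The second insertion line gives a direct comparison within mature mutant seeds. In a fit over the 9 mature libraries, 18.6% of 19429 identifiers differed between abi4-2 and abi4-1, 8.93% being higher and 9.68% lower in abi4-2, and the nuclear ones among them numbered 1701 higher and 1878 lower. Mitochondrial identifiers were higher in abi4-2 for 29 of 43, with 0 lower and a median log2 difference of 0.98. Against R108, which both lines share as control, the median log2 change of mitochondrial identifiers was 2.09 in abi4-2 and 1.05 in abi4-1. Plastid identifiers had 5 higher and 2 lower among 79, with a median log2 difference of 0.050, and their share of the library was 0.114 ± 0.00152% in abi4-2 and 0.110 ± 0.00894% in abi4-1 (SD, n = 3; exact two-sided permutation, p = 0.7). In abi4-1 the named rises stood at 258, 202 and 21.6 for MtrunA17_Chr1g0202241 and at 220, 182 and 21.5 for MtrunA17_Chr6g0463521, and the second of them was not called between the lines (adjusted p in limma = 0.0506). For the mitochondrial share, each abi4-2 library lay above each abi4-1 library, at 0.0574 ± 0.0161% against 0.0275 ± 0.00622% (exact two-sided permutation, p = 0.1, the lowest attainable).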

How the data were processed

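RNA was extracted from whole seeds, mRNA was enriched and reverse transcribed with random primers, and short reads were produced on a BGISEQ-500, per the labels' protocols. Per the submitters' processing notes, Salmon was used; genome build, annotation and normalization were not given in the sources used here. Deposited values are named FPKM, yet they form a signal on a normalized-count scale, scaled separately for the 3 stages, and whole reads were not recovered, so no count model was used. The values were compared as log2(normalized count + 1) with limma (version 3.58.1, R 4.3.3, intensity trend) over the 6 libraries, without a block for replicate number; identifiers with at least 10 in at least 3 libraries were tested and p-values adjusted over all of them. The pseudocount of 1 understates changes of low identifiers. The plan named limma for FPKM values and a count test if the values were counts instead. Because whole reads were not recovered, limma was kept although the unit differed from the FPKM name. Shares of a library were compared with exact permutation tests.

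Named were the 2 largest nuclear rises and the 2 largest falls that were called with each library left out and had at least 100 in each library of the higher genotype. Members, lists and rules were chosen with earlier results of these data known. Gene lists and tissue markers could not be applied without names. Replicates differed by more than sampling noise (chi-square per identifier of at least 2.50). The fit was tested on simulated data. Alternatives covered scaling, pseudocount, filter, variance model, replicate block and omission of each library; each main count was recomputed under 22 of them. Omissions were first run with the filter applied again to the libraries left, which removes transcripts present in 1 genotype alone. After that output was seen, they were rerun with the tested identifiers held fixed, which changed all 4 named identifiers and the stability of the counts of 4-fold changes; both versions are reported. The scaling to the upper quartile of values above 0, the level classes, the runs and the individual transcripts without an identifier were also chosen after seeing the data. For transcripts picked by the size of their change, the p-values are not independent of that choice.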

Additional observations from a re-analysis of the deposited data

Results flagged for a closer look

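Both abi4 lines were compared with the same R108 libraries, and 3 results differed between the lines when abi4-2 was tested against abi4-1 directly with limma. MtrunA17_Chr1g0202241 was higher in abi4-2 than in abi4-1 (adjusted p = 0.0124), at 671 ± 249 against 161 ± 124 normalized counts (SD, n = 3). In abi4-1 the third library, at 21.6, was far below the others, at 258 and 202. This identifier was named for its high level in abi4-2, so the difference is not independent of that choice. MtrunA17_Chr4g0016261 was listed at 0 in each abi4-2 library and stood at 20.9, 53.8 and 26.8 in abi4-1 (adjusted p = 5.17e-07). It was named for its absence from abi4-2, so the same limit applies. The p-value also rests on values of exactly 0, which can be failed estimates, so no conclusion about the lines is drawn from it. Among mitochondrial identifiers 29 of 43 differed between the lines, all of them higher in abi4-2; without the third abi4-2 library, which had the highest mitochondrial share, 17 did.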

How the results depend on the processing

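The nuclear counts stayed within 1.5 times of 4066 and 3969 under the alternatives tried, at 3061 to 6066 rises and 2990 to 4254 falls, except that scaling to the upper quartile of the values above 0 in each library, chosen after seeing the data, gave 2199 falls. The number of rises of at least 4-fold was 204 with a pseudocount of 10, 813 when 1 normalized count sufficed for the filter and 832 with no filter, in place of 482, and that of falls was 43 with a pseudocount of 10, in place of 128. Omissions with the filter reapplied, added after seeing the data, gave 185, 175 and 214 rises of at least 4-fold and 1 plastid rise each without abi4-2 replicate 1, 2 and 3, and 79, 75 and 76 falls of at least 4-fold without R108 replicate 1, 2 and 3; fewer identifiers are tested there by construction. With the identifiers held fixed, omissions gave 454 to 504 rises and 119 to 135 falls. The median nuclear log2 change, -0.0061, had a small spread between libraries and moved by more than that with other scalings and filters. It was 0.0267 with a filter of 1, 0.0478 with none and 0.0369 with column totals. With the upper quartile it was -0.0239, and with that of values above 0 it was 0.1273. With a library left out it was -0.0067 to -7e-04, and it moved beyond that spread only without abi4-2 replicate 2 (-7e-04). With the filter reapplied it was -0.0152, -0.0115 and -0.0156 without abi4-2 replicate 1, 2 and 3, and -0.0033, -3e-04 and -0.0026 without R108 replicate 1, 2 and 3. Its sign is therefore not a result. With a pseudocount of 10, which shrinks changes of low identifiers by construction, the mitochondrial median log2 change was 1.57 in place of 2.09. Plastid rises numbered 1 without the intensity trend, in place of 2. With bounds of below 1 and at least 20, identifiers present in abi4-2 alone numbered 28 in place of 125, and those present in R108 alone 3 in place of 10; with column totals the latter were 6. Leaving out a library, which by construction cannot lower these counts, gave 135 to 188 present in abi4-2 alone and 13 to 20 present in R108 alone. Mitochondrial identifiers higher in abi4-2 than in abi4-1 numbered 17 to 29 with a library left out. Plastid falls numbered 75 or 76. The 4 named identifiers kept their calls under each alternative that tested them; with the filter reapplied they were tested in 3 of 6 omissions. Replicate numbers recur in the groups, but same-numbered libraries deviated from their group means with correlations of -0.0379 to 0.0179, so they were not taken as pairs, and 2 of 6 libraries correlated best with their own number; with the replicate number as a block 4059 nuclear identifiers rose and 3943 fell. With that block the 13 DAP comparison of abi4-1 gave 461 nuclear rises in place of 283. Estimated depth was similar in all mature libraries, and it was not estimated for the earlier stages. Values under about 10 normalized counts rest on few reads.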
